A study of Mus musculus with 24 samples.

Results

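The genes described here encode subunits of the mitochondrial oxidative phosphorylation complexes. They were chosen by symbol alone, as the probes whose gene name on the array starts with Nduf, Uqcr or Atp5, is one of Sdha to Sdhd, or starts with Cox followed by a digit from 4 to 8. The rule found 117 probes of 83 genes, out of 21597 gene symbols on the array. Of the 83 genes, 35 were placed by name in complex I, 4 in complex II, 7 in complex III, 17 in complex IV and 15 in complex V, and 5 were set apart because their products are not regarded as subunits of the complex in their name. Subunits encoded by mitochondrial DNA carry other symbols and are outside the rule.

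Complex I takes electrons from NADH and complex II takes them from succinate, complex III passes them from ubiquinol to cytochrome c, and complex IV hands them to oxygen. Complexes I, III and IV pump protons out of the mitochondrial matrix, and complex V, the ATP synthase, makes ATP as the protons return. Macrophages stimulated through TLR4, the receptor for bacterial lipid A, are known for moving their energy supply from respiration towards glycolysis, and complexes I and II are known there as sources of reactive oxygen species.

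RNA of C57BL/6 mouse cells was measured on 12 two-channel Agilent arrays, 4 for each of 3 cell types. The elicited peritoneal macrophages (EPM) were collected after thioglycollate injection and plated overnight, so they are recruited inflammatory cells. Bone marrow-derived macrophages (BMDM) were grown from marrow with M-CSF from L-cell conditioned medium, and the resting B cells are CD43-negative spleen cells left after magnetic removal of cells bearing CD43 or CD11b. Kdo2 lipid A (KLA), a defined TLR4 ligand, was given for 1 h or 12 h. The early control was untreated in EPM and B cells and DMSO for 1 h in BMDM, and the control at 12 h was DMSO for 12 h in each cell type. Each of the 12 conditions has 2 biological replicates, which share 1 array, replicate 1 in Cy5 and replicate 2 in Cy3. The difference between conditions and between arrays therefore cannot be told apart, and since each cell type has a slide of its own, neither can cell type and slide. The early controls of EPM and BMDM also differ in vehicle, which cannot be told apart from cell type, and the number of arrays limits the precision.

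Values are log2 normalised intensities of the gene's brightest probe, given as replicate 1 and replicate 2, with the control before KLA unless a sentence names another order. Probe positions are on mm8. A gene rose or fell where limma, fitted to all 24 channels, gave an adjusted p under 0.05 over all genes tested, with n = 2 in each condition throughout. Genes named for the largest changes were chosen with replicates that do not overlap, so lack of overlap is no further evidence for them. With KLA at 1 h it held for 63.3% of all genes in EPM, 59.6% in BMDM and 49.6% in B cells. At 12 h it held for 74.8%, 81.0% and 43.1%, and between the controls of cell types for 76.2% to 88.0%. Between 57.4% and 65.0% of all probes were well above background in a channel. Of the 83 members, 80 or 81 were well above background in both replicates of every condition, and 81 entered the test. Cox8b and Cox8c, the muscle and testis forms of a complex IV subunit, did not pass in any channel and were not tested. In bulk RNA, fewer cells of a type and less RNA per cell cannot be told apart.

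By markers, of 11 macrophage genes, 10 or 11 were well above background in both replicates of each macrophage condition, with summed intensities from 476210 to 660051 and Lyzs or Ctsd the most intense. In B cells 6 or 7 of the 11 were, and 4, Itgam, Mrc1, Fcgr1 and Cd163, were not above background. Their summed intensity ran from 2741 to 6883, with Ctsd the most intense, and Emr1 read 7.48 and 7.56 in the untreated cells, 7.47 and 7.41 with KLA for 1 h, 10.92 and 10.84 in the DMSO control at 12 h and 10.71 and 10.51 with KLA for 12 h. All 10 B cell genes were well above background in every B cell condition, Igh-6 being the most intense. In macrophages 6 to 8 of the 10 B cell genes passed background in both replicates of a condition, with summed intensities from 20946 to 68253, most of it from Blnk, while Fcer2a and Cr2 were not above background. Neutrophil genes were brightest in BMDM. There S100a9 read 13.44 and 13.56 in the DMSO 1 h control and 14.03 and 14.31 with KLA for 1 h, and at 12 h it went from 12.86 and 13.17 to 13.91 and 14.18 and rose by 1.03 on the log2 scale (adjusted p = 0.00443). Of the same list S100a8, Camp and Ngp also rose in BMDM at 12 h, Mpo fell by 0.69 (adjusted p = 1.72e-06), Ltf changed by 0.04 (adjusted p = 0.691), and Ela2 was not above background with KLA. Summed over the 7 neutrophil genes the intensity went from 9999 and 11697 to 19828 and 22793 there, most of it from S100a9. In EPM S100a9 went from 7.93 and 7.66 to 9.72 and 9.74 at 1 h and rose by 1.94 (adjusted p = 4.64e-05), and the sum went from 1122 and 1219 to 2050 and 1971. S100a8 also rose there, by 0.57 (adjusted p = 0.00466), and Mpo fell by 0.25 (adjusted p = 0.0421). At 12 h in EPM S100a8 rose by 0.63 (adjusted p = 8.83e-04) and Camp rose from background, at least 1.84-fold (adjusted p = 1.23e-07). Ltf fell to background, at least 1.52-fold (adjusted p = 8.64e-06), and S100a9 changed by -0.08 (adjusted p = 0.834). The sum there went from 1125 and 1123 to 1603 and 1277. In B cells the sum ran from 468 to 611. Of 6 T cell genes, Lck was the most intense in B cells, at 10.32 and 9.91 in the untreated cells and 11.53 and 11.33 in the DMSO control at 12 h. With KLA for 12 h Lck went from 6.37 and 6.34 to 8.02 and 7.98 in EPM and rose by 1.65 (adjusted p = 1.46e-10). In BMDM it rose by 0.52 (adjusted p = 2.54e-04). B cell genes moved both ways in macrophages at 12 h. Igh-6 rose by 0.87 in EPM (adjusted p = 6.53e-05) and Cd22 fell by 1.25 (adjusted p = 3.67e-08). In BMDM Cd79b fell by 1.63 (adjusted p = 9.28e-11) and Cd22 rose by 0.72 (adjusted p = 2.85e-05). Of erythroid genes Epb4.2 was not above background in any condition. In macrophages Hba-a1 read at most 7.52 in any replicate. Whether these other cells have a part in the decreases of the members was not tested.

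KLA acted in both macrophage types. Tnf, a cytokine gene induced early through TLR4, read 9.60 and 9.62 in untreated EPM and 16.31 and 16.37 after 1 h of KLA, a change of 106-fold (adjusted p = 1.2e-20). In BMDM it read 12.27 and 12.32 in the control and 16.16 and 16.32 after 1 h, 15.4-fold (adjusted p = 1.86e-17). Among the 6 KLA genes checked in B cells, by the array labels, Isg20 was the most intense, and Cxcl10, a chemokine gene, rose from background in the DMSO control to 7.70 and 7.69 at 12 h, at least 2.87-fold (adjusted p = 6.96e-06). With the B cell labels exchanged as described next, the control is well above background and the difference is 1.82-fold (adjusted p = 3.66e-04), but at 1 h the exchanged change of Cxcl10 is -0.57 (adjusted p = 0.00973). Tnf in B cells rose by 0.43 at 12 h by the array labels (adjusted p = 0.00145), and with the labels exchanged it changes by -1.06 at 1 h (adjusted p = 1.97e-09) and -0.82 at 12 h (adjusted p = 5.75e-08). Il1b, not called by the array labels, then changes by -1.06 and -1.03 (adjusted p = 7.71e-09 and 1.26e-08). With arrays as samples Tnf in BMDM at 1 h (adjusted p = 0.0928) and Cxcl10 in B cells at 12 h were not called.

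The labels of 2 B cell conditions are in doubt. Each column of the authors' table of normalised values was compared with the arrays. Of 24 columns, 20 followed the array of their own group, with r of at least 0.966 across genes. The other 4, labelled B cells with KLA for 1 h and B cells with DMSO for 12 h, followed each other's arrays. Their lowest r with the other condition was 0.978, and their highest r with their own was -0.738. Which labels are right was not settled here. The array labels are used below, with the counts for the exchanged labels after them. With the array labels, erythroid Hbb-b1 averaged 12.93 and 12.98 in the B cell conditions labelled untreated and KLA for 1 h, and 11.85 and 11.47 in those labelled DMSO and KLA for 12 h.

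The members are bright genes. Their median log2 intensity was 12.99 against 8.23 over all genes tested, and 58 of the 81 were among the brightest 10%, the 1735 genes at 12.11 or above. Because bright genes as a class moved under KLA, each median below stands beside that of all genes and that of these brightest genes.

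After 12 h of KLA most members were lower in both macrophage types. In EPM 63 of 81 members fell, where 34.3% of 17340 genes did, and 2 rose, where 19.6% of genes did. Of all 81 members, 27 fell by over 1.5-fold, against 13.0% of all genes. The median log2 change was -0.45 over the members, -0.06 over all genes and -0.30 over the brightest 10%. In BMDM 70 of 81 fell, against 36.3% of 17342 genes, and 4 rose, against 28.6%. Of all 81 members, 29 fell by over 1.5-fold, against 19.4% of all genes. The median change was -0.48 over the members, -0.03 over all genes and -0.37 over the brightest 10%.

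These counts move with the scale. With each comparison centred on the brightest 10%, a setting added after the data were seen, 38 members were lower and 6 higher in EPM, and 27 lower and 14 higher in BMDM. Of all genes 73.9% were then called in EPM and 83.2% in BMDM, in either direction. The authors' table gave 47 lower and 3 higher in EPM, with a median of -0.28 over the members, and 34 lower and 7 higher in BMDM, with a median of -0.16. There 50.7% of all genes were called in EPM and 62.3% in BMDM. Without scaling between arrays 42 were lower and 4 higher in EPM, where 52.7% of genes were called, with medians of -0.20 over the members and -0.02 over all genes. In BMDM the median of all genes was then itself -0.14, and that of the members -0.42, with 66.3% of genes called. With each array taken as 1 sample and the control arrays of a cell type as replicates, limma called 20 members in EPM, all lower, against 11.6% of genes, and 26 in BMDM, 25 lower and 1 higher, against 21.1%. KLA at either time was there set against the early and 12 h controls together, so any difference between these controls enters the change. Of the values of genes named in this text, 73 that pass the threshold did not pass in that setting, among them every change of a member at 1 h in the macrophages.

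At 1 h the shift was smaller. In EPM, where the control was untreated and the vehicle cannot be told apart from KLA, 32 of 81 members fell, against 19.7% of 17345 genes, and 2 rose, against 9.39%. With the replicate block 47 were lower and 3 higher, against 40.7% of genes called. The median log2 change was -0.20 over the members, -0.05 over all genes and -0.16 over the brightest 10%. The authors' table gave 11 lower and 3 higher, and centring on the brightest 10% gave 14 lower and 3 higher. Of all genes 21.5% and 38.5% were called in these settings. In BMDM 20 of 81 fell, against 17.6% of 17343 genes, and 1 rose, against 11.0%. Here the median change was -0.12 over the members, -0.03 over all genes and -0.13 over the brightest 10%, so the members lay with other bright genes. Centred on them, 6 were lower and 8 higher, with 35.6% of genes called. The BMDM count of 21 was 11 without replicate 1 of DMSO for 1 h, 13 without replicate 2 of KLA for 1 h, 11 without scaling between arrays and 7 in the authors' table, while with the replicate block it was 36, against 39.7% of genes. Of all genes 31.3% were called without scaling between arrays and 23.0% in the authors' table. With arrays as samples, limma called 0 members at 1 h in either macrophage type, with 12 in EPM and 6 in BMDM at an unadjusted p under 0.05. Of all genes it called only 0.951% in EPM and 0.571% in BMDM there.

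**Figure D1:**
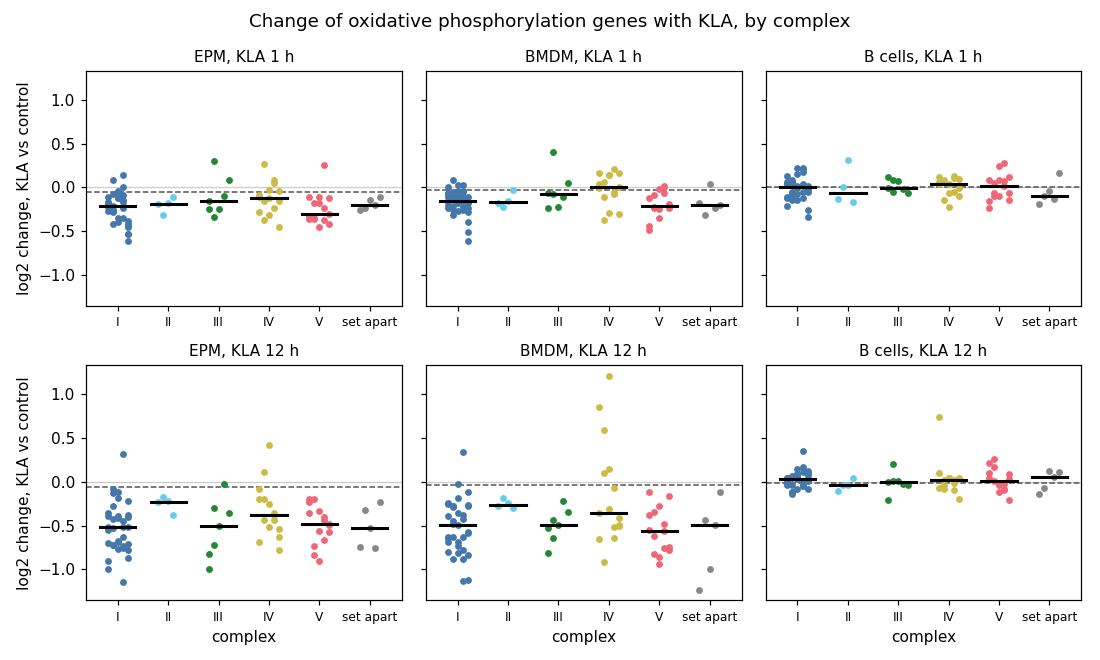
Log2 change of each member tested (points) with KLA against its control, by complex, in EPM, BMDM and B cells at 1 h and 12 h. The 1 h control was untreated in EPM and B cells and DMSO for 1 h in BMDM. Black bars mark the median of each complex and the dashed line marks that of all genes tested. At 12 h the medians of complex I were -0.52 in EPM and -0.49 in BMDM, or -0.33 and -0.25 in the authors' table.

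The counts of each complex stand against the shares of all genes. At 12 h 34.3% of genes fell and 19.6% rose in EPM, and 36.3% fell and 28.6% rose in BMDM. At 1 h 19.7% fell and 9.39% rose in EPM, and 17.6% fell and 11.0% rose in BMDM. Complex I has the most genes. At 12 h 27 of its 35 members fell in EPM and 1 rose, with a median log2 change of -0.52, and 32 fell and 1 rose in BMDM, with a median of -0.49. In each macrophage type 15 of the decreases were over 1.5-fold. In EPM the median was -0.26 without scaling between arrays, with 21 lower, and -0.33 in the authors' table, with 24 lower. In BMDM the table gave -0.25, with 18 lower. At 1 h 16 fell in EPM, with a median of -0.21, and 8 in BMDM, with a median of -0.16.

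Ndufb10 (NM_026684, chr17:24449674-24449733), an accessory subunit of the membrane arm, showed the largest decrease of complex I at 12 h in both macrophage types. It read 14.46 and 14.49 in the EPM control and 13.33 and 13.34 with KLA. All KLA replicates lay below all control replicates, and the gene was 2.21-fold lower (log2 difference -1.14, SE 0.05, adjusted p = 1.85e-12). In BMDM it read 14.37 and 14.35 in the control and 13.25 and 13.21 with KLA, again without overlap. It was 2.18-fold lower (log2 difference -1.13, SE 0.05, adjusted p = 1.67e-12). At 1 h it had already fallen, from 14.51 and 14.50 to 14.17 and 14.13 in EPM (log2 difference -0.35, SE 0.05, adjusted p = 5.74e-05) and from 14.09 and 14.09 to 13.79 and 13.86 in BMDM (log2 difference -0.26, SE 0.05, adjusted p = 0.00110). This BMDM change was -0.14 without scaling between arrays, -0.16 in the authors' table and -0.14 when centred on the brightest 10%, none of them called.

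Its neighbours in the membrane arm moved the same way. Ndufb11 (NM_019435, chrX:19772283-19772342) went from 14.12 and 14.15 to 13.29 and 13.24 in EPM, where it fell by 0.87 on the log2 scale (SE 0.08, adjusted p = 4.01e-08). In BMDM it went from 13.99 and 14.09 to 12.89 and 12.95, and fell by 1.12 on the log2 scale (SE 0.08, adjusted p = 9.21e-10). Replicate 1 of its BMDM control at 1 h had no value, and the fit used the remaining one. The KLA replicates at 12 h were below the control replicates in both cell types. Ndufb2 (NM_026612, chr6:39527917-39529002) read 13.21 and 13.38 in the EPM control and 12.38 and 12.24 with KLA, and fell by 0.99 on the log2 scale (SE 0.06, adjusted p = 2.22e-10). In BMDM the values were 13.33 and 13.24, then 12.69 and 12.60, and it fell by 0.64 on the log2 scale (SE 0.06, adjusted p = 6.44e-08). Neither pair overlapped, and the decrease was larger in EPM (log2 difference -0.35, SE 0.09, adjusted p = 0.00432), a difference of -0.15 without scaling between arrays, not called.

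Other members of complex I were lower early. Ndufb6 (NM_001033305, chr4:40461496-40466353), a membrane arm subunit, went from 12.90 and 12.67 to 12.34 and 12.17 in EPM after 1 h, and fell by 0.53 on the log2 scale (SE 0.08, adjusted p = 6.56e-05). It went from 12.56 and 12.51 to 12.01 and 12.04 in BMDM, and fell by 0.51 on the log2 scale (SE 0.08, adjusted p = 1.18e-04). At 12 h the EPM values were 12.65 and 12.66 in the control and 12.33 and 12.18 with KLA, and the BMDM values 12.42 and 12.35, then 12.34 and 12.21. The BMDM replicates with KLA lay just below those of the control, yet the change of -0.11 (SE 0.08, adjusted p = 0.246) did not pass. Ndufa7 (NM_023202, chr17:33444270-33444329), an accessory subunit of the matrix arm, went from 13.80 and 13.90 to 13.08 and 13.40 in EPM and fell by 0.61 on the log2 scale (SE 0.11, adjusted p = 2.28e-04), with no overlap. In BMDM it read 13.97 and 13.89 and then 13.64 and 13.66, a change of -0.28 (SE 0.11, adjusted p = 0.0615) that the replicate block called. A further probe of Ndufa7 gave a smaller change in EPM, -0.12. Ndufv2 (NM_028388, chr17:65988872-65989013), an iron-sulphur core subunit of the part that oxidises NADH, went from 11.46 and 11.34 to 10.85 and 10.73 in BMDM and fell by 0.61 on the log2 scale (SE 0.09, adjusted p = 4.49e-05). In EPM it went from 11.32 and 11.24 to 10.91 and 10.76, and fell by 0.45 on the log2 scale (SE 0.09, adjusted p = 9.24e-04).

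Ndufs4 (NM_010887, chr13:115409650-115409709), an accessory subunit needed to assemble the NADH-oxidising part, was the member of complex I that rose at 12 h. It read 11.88 and 11.90 in the EPM control and 12.38 and 12.05 with KLA, and 12.22 and 11.99, then 12.60 and 12.30 in BMDM. In each cell type the lower KLA value was just above the higher control value. It rose by 0.32 on the log2 scale (SE 0.13, adjusted p = 0.0434) in EPM and rose by 0.34 on the log2 scale (SE 0.13, adjusted p = 0.0265) in BMDM, and these are among the weakest calls described here. The EPM call was lost in 11 of 36 alternatives, among them the processed intensity (0.28), the mean of probes (0.16), arrays as samples (0.31), and leaving out replicate 1 of KLA for 12 h (0.16), either replicate of its DMSO control (0.31 and 0.33), or any 1 of 4 B cell channels (0.32). The BMDM call was lost in 4, with the mean of probes (0.09), arrays as samples (0.30), and without replicate 1 of KLA for 12 h (0.20) or replicate 2 of its DMSO control (0.23).

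Complex II, which also serves the citric acid cycle as succinate dehydrogenase, changed little. At 12 h 3 of its 4 genes fell in EPM, with a median log2 change of -0.23, and all 4 fell in BMDM, with a median of -0.26. Centred on the brightest 10% these medians became 0.07 and 0.11, so the direction rests on the scale. The EPM median was -0.05 without scaling between arrays, where limma called 0 of the 4, with 0 at an unadjusted p under 0.05. The authors' table gave -0.13 in EPM and -0.03 in BMDM, again with 0 called by limma and 0 at an unadjusted p under 0.05. Sdha (NM_023281, chr13:74794310-74794369), the flavoprotein that oxidises succinate, read 10.86 and 10.92 in the EPM control and 10.56 and 10.76 with KLA, and 11.14 and 11.24, then 10.82 and 10.99 in BMDM. Each KLA pair lay below its control pair, with log2 changes of -0.23 (adjusted p = 0.0365) and -0.28 (adjusted p = 0.00843). Sdhb (NM_023374, chr4:140238675-140243242), its iron-sulphur partner, was the member called at 1 h, from 13.05 and 12.94 to 12.63 and 12.70 in EPM, where it fell by 0.32 on the log2 scale (SE 0.07, adjusted p = 0.00200). In BMDM it went from 13.02 and 12.93 to 12.81 and 12.70 and fell by 0.22 on the log2 scale (SE 0.07, adjusted p = 0.0279), though the change was -0.19 without scaling between arrays and -0.09 in the authors' table, neither of them called. Sdhd (NM_025848, chr9:50348755-50348814), a membrane anchor that binds ubiquinone, had the largest decrease of complex II at 12 h. It read 12.97 and 13.27, then 12.66 and 12.82 in EPM and 12.89 and 12.90, then 12.54 and 12.64 in BMDM, and the changes were -0.38 (adjusted p = 0.00198) and -0.30 (adjusted p = 0.00762). Sdhc (NM_025321, chr1:172966201-172966260), the other anchor, moved by -0.22 (adjusted p = 0.00674) in EPM, from 11.89 and 11.85 to 11.60 and 11.68, and by -0.24 (adjusted p = 0.00300) in BMDM, from 11.95 and 12.14 to 11.78 and 11.82. In BMDM the change of Sdhc was 0.04 with the mean of its probes and 0.00 in the authors' table.

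Of the 7 genes of complex III, 6 fell in EPM at 12 h, with a median log2 change of -0.50, and 7 in BMDM, with a median of -0.49. The EPM median was -0.16 without scaling between arrays, with 4 lower and 1 higher, and in the authors' table -0.23, with 4 lower and 1 higher, while the BMDM median there was -0.16, with 3 lower. At 1 h 2 fell and 1 rose in EPM, and 1 fell and 1 rose in BMDM. The larger decrease in EPM was that of Uqcrq (-0.34). The 1 h median was -0.16 in EPM and 0.01 in the authors' table, and -0.08 in BMDM and 0.05 both there and without scaling between arrays. Uqcr (NM_025650, chr10:79806148-79806207), a small subunit now named Uqcr11, read 14.07 and 14.22 in the EPM control and 13.13 and 13.19 with KLA. Uqcr fell by 0.99 on the log2 scale (SE 0.09, adjusted p = 4.58e-08). BMDM read 13.88 and 13.97 in the control and 13.09 and 13.13 with KLA, and the gene fell by 0.81 on the log2 scale (SE 0.09, adjusted p = 3.87e-07). Uqcrh (NM_025641, chr4:115564971-115565030), the hinge protein next to cytochrome c1, went from 14.93 and 14.79 to 14.15 and 13.93 in EPM and fell by 0.82 on the log2 scale (SE 0.10, adjusted p = 8.65e-07). Its BMDM values were 14.87 and 14.89, then 14.31 and 14.39, and it fell by 0.53 on the log2 scale (SE 0.10, adjusted p = 1.1e-04). None of these groups overlapped. Uqcrh in BMDM was -0.11 in the authors' table and -0.15 when centred on the brightest 10%, neither of them called.

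Uqcrb (NM_026219, chr13:67336479-67336538), a ubiquinone-binding subunit, turned between the times. At 1 h it went up, from 12.71 and 12.58 to 12.98 and 12.91 in EPM and from 12.33 and 12.18 to 12.69 and 12.65 in BMDM. Both KLA pairs were above their controls: it rose by 0.30 on the log2 scale (SE 0.08, adjusted p = 0.00626) in EPM and rose by 0.41 on the log2 scale (SE 0.08, adjusted p = 5.12e-04) in BMDM. At 12 h it went down, from 12.57 and 12.62 to 12.40 and 12.18 in EPM and from 12.67 and 12.49 to 11.97 and 11.91 in BMDM. There it fell by 0.30 on the log2 scale (SE 0.08, adjusted p = 0.00290) in EPM and fell by 0.64 on the log2 scale (SE 0.08, adjusted p = 8.52e-07) in BMDM, though the EPM change was -0.06 without scaling between arrays, -0.17 in the authors' table and 0.00 when centred on the brightest 10%, none of them called. Without replicate 2 of KLA for 12 h it was -0.19, also not called. At 1 h in EPM it was 0.24 without replicate 2 of the untreated cells and 0.27 without replicate 1 of KLA, neither of them called. Uqcrc1 (NM_025407, chr9:108806516-108806575), a core subunit, was lower at both times, from 13.62 and 13.68 to 13.35 and 13.45 at 1 h in EPM, where it fell by 0.25 on the log2 scale (SE 0.05, adjusted p = 0.00103), though this was -0.17 in the authors' table and not called. At 12 h it went from 13.79 and 13.77 to 13.25 and 13.31, and fell by 0.50 on the log2 scale (SE 0.05, adjusted p = 1.58e-07). Uqcrc2 (NM_025899, chr7:120450234-120450293), the other core subunit, overlapped in EPM at 12 h, with 13.24 and 13.16 in the control and 13.25 and 13.10 with KLA, a change of -0.02 (SE 0.08, adjusted p = 0.876) that became 0.33 without scaling between arrays and 0.25 in the authors' table.

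By count, complex IV was the most divided at 12 h. Of its 15 genes tested, 9 fell and 1 rose in EPM at 12 h, with a median log2 change of -0.38 that became -0.05 without scaling between arrays, with 6 lower and 2 higher, and -0.13 in the authors' table, with 7 lower and 1 higher. In BMDM 9 fell and 3 rose, with a median of -0.35 that became 0.03 in the authors' table and 0.03 when centred on the brightest 10%. At 1 h 3 fell and 1 rose in EPM, with a median of -0.12 that became 0.04 under that centring, and 2 fell in BMDM, where the median was 0.01. These 1 h counts are near the shares of all genes that fell, 19.7% in EPM and 17.6% in BMDM.

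Cox4i1 (NM_009941, chr8:123560001-123560060), the widely expressed form of subunit 4, read 15.26 and 15.48 in the EPM control and 14.68 and 14.68 with KLA. It fell by 0.69 on the log2 scale (SE 0.13, adjusted p = 1.24e-04), with the groups apart. In BMDM the control replicates differed from each other, at 15.34 and 15.76, and so did those with KLA, at 14.70 and 15.10, so that Cox4i1 fell by 0.65 on the log2 scale (SE 0.13, adjusted p = 1.71e-04) with groups that remained apart, though the change was -0.20 in the authors' table and -0.27 when centred on the brightest 10%, neither of them called. Cox4i2 (NM_053091, chr2:152445655-152446644), the form known from lung and from hypoxia, was barely above background in macrophages. It read 6.41 and 6.43 in the BMDM control at 12 h and 6.99 and 7.03 with KLA, and rose by 0.59 on the log2 scale (SE 0.05, adjusted p = 6.37e-09). Its increase there ran from 0.45 to 1.48 over the alternatives. In EPM at 12 h Cox4i2 read 6.33 and 6.38, then 6.44 and 6.48, a change of 0.11 (SE 0.05, adjusted p = 0.0836), and the responses of the macrophage types differed (log2 difference -0.49, SE 0.07, adjusted p = 2.01e-05). That difference ran from -1.20 to -0.33. At 1 h in EPM Cox4i2 came out of background, to 6.33 and 6.37, at least 1.21-fold (adjusted p = 4.55e-04). Over the alternatives this log2 change ran from 0.13 to 1.70.

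Cox6a1 (NM_007748, chr5:115606716-115606775), the liver form of subunit 6a, was the brightest member, at 16.74 and 16.83 in the EPM control at 12 h and 16.18 and 16.30 with KLA, and it fell by 0.54 on the log2 scale (SE 0.07, adjusted p = 1.37e-06). From 16.74 and 16.86 in the BMDM control it went to 16.32 and 16.28, and fell by 0.50 on the log2 scale (SE 0.07, adjusted p = 2.46e-06), though the BMDM change was 0.11 in the authors' table and -0.05 without scaling between arrays, neither of them called. Cox6a2 (NM_009943, chr7:127996794-127996853), the heart and muscle form, went the other way in BMDM. It read 8.74 and 8.79 in the control at 12 h and 9.54 and 9.70 with KLA, and rose by 0.85 on the log2 scale (SE 0.10, adjusted p = 7.73e-07), though with arrays as samples the change was 0.65 and was not called (adjusted p = 0.689). In EPM its values overlapped, at 7.90 and 8.04, then 7.83 and 7.94, with a change of -0.08 (SE 0.10, adjusted p = 0.538). The difference between the responses passed the test (log2 difference -0.94, SE 0.15, adjusted p = 3.99e-05).

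Cox6b1 (NM_025628, chr7:30333316-30334812), the widely expressed form of subunit 6b, went from 10.07 and 10.17 to 9.69 and 9.67 in EPM, and fell by 0.44 on the log2 scale (SE 0.07, adjusted p = 4.8e-05). In BMDM it read 9.86 and 9.75, then 9.92 and 9.88, a change of 0.10 (SE 0.07, adjusted p = 0.238), and the responses differed (log2 difference -0.54, SE 0.10, adjusted p = 2.97e-04). Without scaling between arrays the BMDM change was -0.22 and the difference -0.09, and the difference was called neither there nor with arrays as samples. Cox6b2 (NM_183405, chr7:4354973-4355032), the testis form, had the largest increase of all members. It went from 7.84 and 8.02 to 9.10 and 9.19 in BMDM at 12 h, over 1 log2 unit with no overlap, and was 2.31-fold higher (log2 difference 1.21, SE 0.07, adjusted p = 1.61e-11). In EPM it went from 7.86 and 7.94 to 8.36 and 8.28, and rose by 0.42 on the log2 scale (SE 0.07, adjusted p = 3.38e-05). The increase was smaller in EPM than in BMDM (log2 difference -0.79, SE 0.10, adjusted p = 2.33e-06).

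Cox7a1 (NM_009944, chr7:29894078-29894689), the heart and muscle form of subunit 7a, went from 8.68 and 9.02 to 8.09 and 8.06 in EPM, and fell by 0.78 on the log2 scale (SE 0.09, adjusted p = 7.36e-07). In BMDM it went from 9.70 and 9.85 to 9.27 and 9.29, and fell by 0.49 on the log2 scale (SE 0.09, adjusted p = 1.21e-04), though the change was -0.11 when centred on the brightest 10%, not called. Cox7a2 (NM_009945, chr9:79541104-79541163), the liver form, went from 13.58 and 13.56 to 13.20 and 13.25 in BMDM and fell by 0.35 on the log2 scale (SE 0.09, adjusted p = 0.00238), though the change was -0.03 in the authors' table, not called. In EPM it read 13.00 and 13.30, then 12.95 and 12.96, a change of -0.19 (SE 0.09, adjusted p = 0.0843) that the replicate block called. Over the alternatives this change ran from -0.34 to 0.15. Cox7a2l (NM_009187, chr17:83410820-83410879), a relative known to link complexes III and IV into supercomplexes, was lower at 1 h in both. It went from 11.78 and 11.82 to 11.43 and 11.44 in EPM (log2 difference -0.37, SE 0.10, adjusted p = 0.00719) and from 12.73 and 12.60 to 12.34 and 12.26 in BMDM (log2 difference -0.37, SE 0.10, adjusted p = 0.00755). Centred on the brightest 10% these were -0.21 and -0.24, neither of them called. At 12 h BMDM went from 12.69 and 12.66 to 11.79 and 11.75, and the gene fell by 0.91 on the log2 scale (SE 0.10, adjusted p = 1.34e-07). The EPM values at 12 h were 11.72 and 11.75, then 11.60 and 11.47, both lower with KLA but short of the threshold at -0.20 (SE 0.10, adjusted p = 0.0839), though called with the replicate block, and the responses differed (log2 difference 0.70, SE 0.14, adjusted p = 3.45e-04). Over the alternatives the EPM change ran from -0.27 to 0.09. Cox8a (NM_007750, chr19:7282281-7282340), the widely expressed form of subunit 8, was lower at both times in both cell types. At 1 h it went from 15.16 and 15.02 to 14.64 and 14.64 in EPM and fell by 0.45 on the log2 scale (SE 0.06, adjusted p = 7.36e-06). At 12 h it fell by 0.63 on the log2 scale (SE 0.06, adjusted p = 2.28e-08) in EPM, and it went from 14.82 and 14.89 to 14.44 and 14.44 in BMDM and fell by 0.41 on the log2 scale (SE 0.06, adjusted p = 4.03e-06), a change that was 0.05 in the authors' table.

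Complex V had 15 genes tested. At 12 h 13 fell in EPM, with a median log2 change of -0.48, and 14 fell in BMDM, with a median of -0.56. The EPM median was -0.17 without scaling between arrays and -0.28 in the authors' table, each with 8 lower. The BMDM medians were -0.42, with 10 lower, and -0.24, with 7 lower and 2 higher. At 1 h 9 fell in EPM, with a median of -0.30, and 5 in BMDM, with a median of -0.21, which became -0.14 and -0.01 in the authors' table, with 2 lower in each. The 3 Atp5g genes encode the same mature subunit c, whose ring turns in the membrane. Atp5g1 (NM_007506, chr11:95889700-95889759) went from 13.28 and 13.47 to 12.52 and 12.58 in EPM, and fell by 0.83 on the log2 scale (SE 0.10, adjusted p = 8.26e-07). BMDM read 12.80 and 13.03 in the control and 12.07 and 12.12 with KLA, and the gene fell by 0.82 on the log2 scale (SE 0.10, adjusted p = 6.46e-07). Atp5g2 (NM_026468, chr15:102491047-102491106) had the largest decrease of complex V in both cell types. It went from 14.10 and 14.03 to 13.12 and 13.22 in EPM and was 1.87-fold lower (log2 difference -0.90, SE 0.09, adjusted p = 4.53e-08). In BMDM it went from 13.90 and 13.90 to 12.97 and 12.95 and was 1.92-fold lower (log2 difference -0.94, SE 0.09, adjusted p = 1.59e-08). These groups were well separated. Atp5g3 (NM_175015, chr2:73709301-73709360), named after its values were seen because it completes the set, varied more between replicates, at 15.63 and 15.20 in the EPM control and 15.17 and 14.86 with KLA, a change of -0.40 (SE 0.21, adjusted p = 0.130) that the replicate block called. From 15.64 and 15.13 in the BMDM control it went to 14.85 and 14.42, and fell by 0.75 on the log2 scale (SE 0.21, adjusted p = 0.00505), though the change was -0.26 in the authors' table, not called.

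In the soluble part of complex V, Atp5c1 (NM_020615, chr2:9973944-9974003), the central gamma stalk, went from 15.21 and 15.13 to 14.92 and 14.76 in EPM, and fell by 0.33 on the log2 scale (SE 0.08, adjusted p = 0.00214). In BMDM it went from 15.14 and 15.10 to 14.22 and 14.31, and fell by 0.86 on the log2 scale (SE 0.08, adjusted p = 3.39e-08). The decrease was larger in BMDM (log2 difference 0.53, SE 0.12, adjusted p = 0.00117). The EPM change was -0.02 without scaling between arrays, -0.09 in the authors' table, -0.03 when centred on the brightest 10% and -0.36 with arrays as samples, none of them called. Atp5a1 (NM_007505, chr18:77986481-77986540), the alpha subunit, was lower early, from 15.22 and 15.15 to 14.73 and 14.75 in BMDM at 1 h, where it fell by 0.44 on the log2 scale (SE 0.06, adjusted p = 2.69e-05). Atp5f1 (NM_009725, chr3:106071009-106071068), the b subunit of the outer stalk, went from 14.41 and 14.38 to 13.89 and 13.93 there, and fell by 0.49 on the log2 scale (SE 0.06, adjusted p = 1.46e-05). At 12 h Atp5f1 read 14.27 and 14.27 in the BMDM control and 14.23 and 14.08 with KLA, a change of -0.11 (SE 0.06, adjusted p = 0.140) that became 0.35 in the authors' table and 0.26 when centred on the brightest 10%, both called. The times were not tested against each other, and a further probe gave 0.00 at 1 h. In EPM Atp5h (NM_027862, chr11:115231910-115231969), the d subunit of the same stalk, went from 14.19 and 14.10 to 13.68 and 13.76 at 1 h, and fell by 0.42 on the log2 scale (SE 0.08, adjusted p = 7.58e-04). Atp5k (NM_007507, chr5:108674089-108674344), a membrane subunit involved in dimers of the enzyme, went from 12.56 and 12.52 to 12.01 and 12.18, and fell by 0.45 on the log2 scale (SE 0.10, adjusted p = 0.00167).

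Of the 5 genes set apart, 5 fell in EPM at 12 h and 4 in BMDM. Ndufa4 (NM_010886, chr6:11850423-11850482), named for complex I but found in complex IV, went from 13.02 and 13.23 to 12.44 and 12.32 in EPM and fell by 0.75 on the log2 scale (SE 0.08, adjusted p = 1.61e-07). BMDM read 13.59 and 13.47 in the control and 13.05 and 13.04 with KLA, and the gene fell by 0.49 on the log2 scale (SE 0.08, adjusted p = 2.08e-05), though the change was -0.20 in the authors' table and -0.11 when centred on the brightest 10%, neither of them called. Ndufa12l (AK007894, chr13:109173568-109173627), an assembly factor of complex I, went from 11.04 and 11.00 to 10.06 and 9.99 in BMDM and fell by 1.00 on the log2 scale (SE 0.06, adjusted p = 1.32e-11). In EPM it went from 11.35 and 11.31 to 10.80 and 10.80, and fell by 0.53 on the log2 scale (SE 0.06, adjusted p = 1.64e-07). Atp5s (NM_026536, chr12:70663138-70663197), a factor associated with complex V and now named Dmac2l, went from 8.81 and 8.83 to 7.57 and 7.61 in BMDM, and fell by 1.23 on the log2 scale (SE 0.07, adjusted p = 2.03e-11). Its EPM values were 8.68 and 8.83, then 8.10 and 7.93, and it fell by 0.74 on the log2 scale (SE 0.07, adjusted p = 4.89e-08). Atp5s has a second probe that disagreed in size, with log2 changes of 0.04 in EPM and -0.38 in BMDM.

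**Figure D2:**
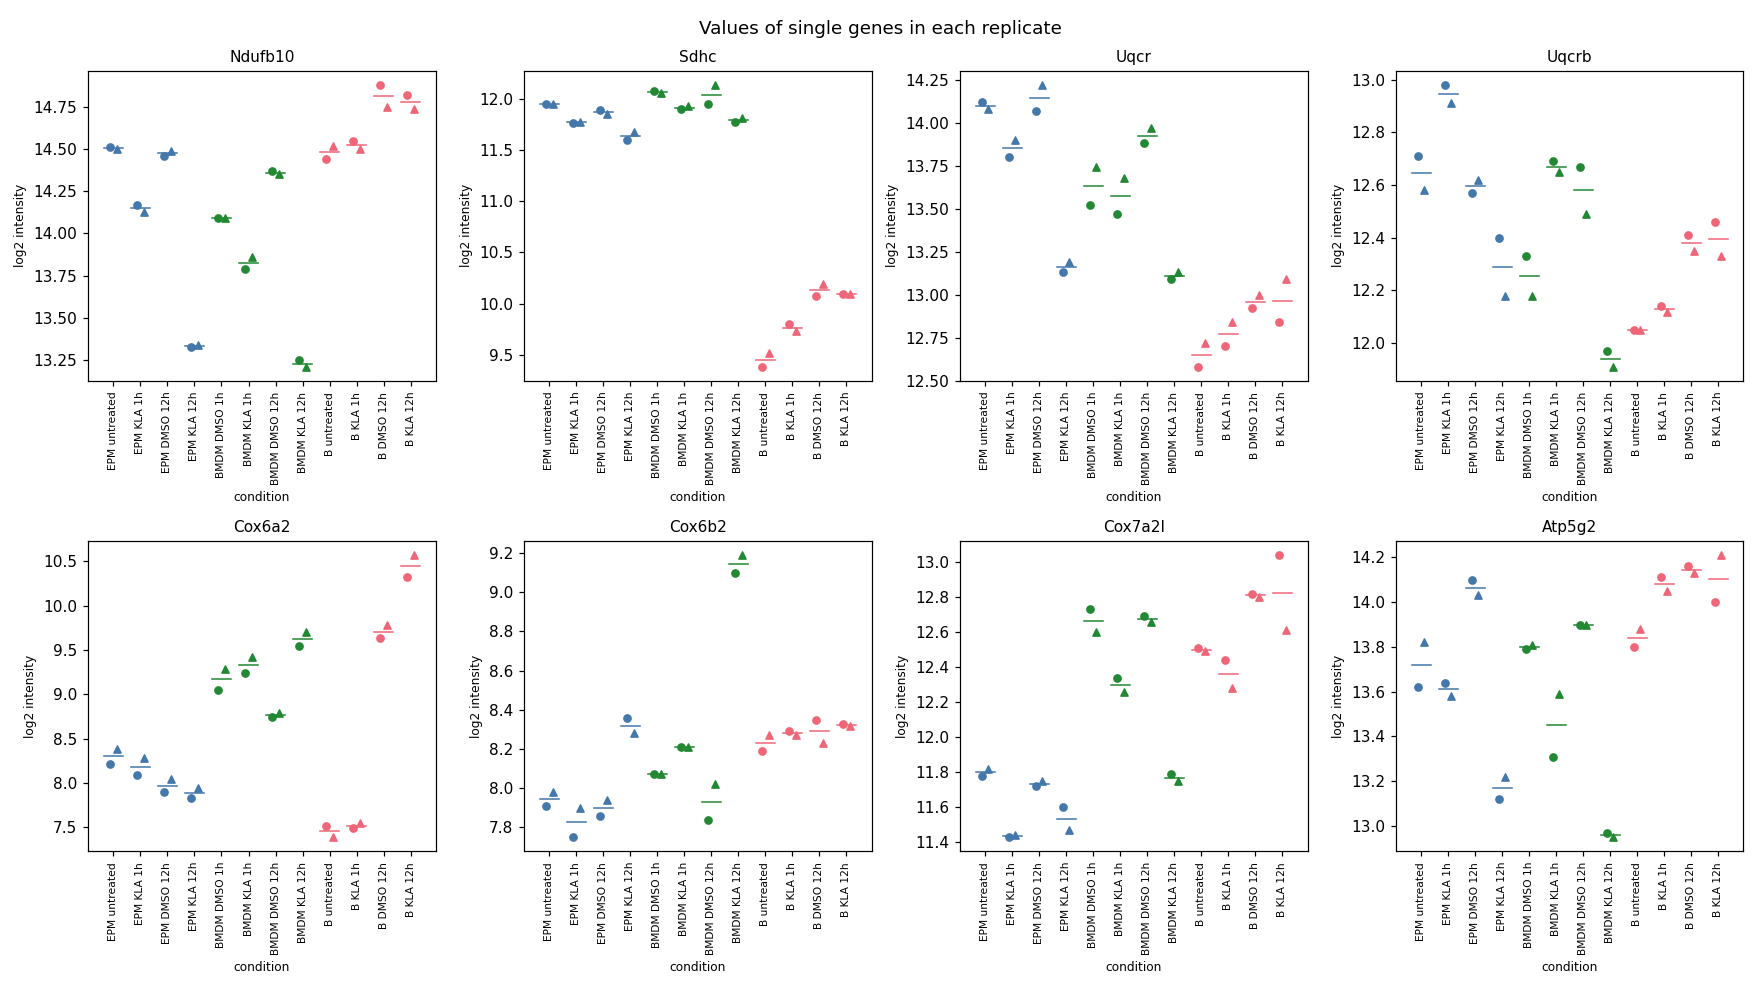
Log2 normalised intensity of 8 members in each replicate of the 12 conditions, with circles for replicate 1, triangles for replicate 2 and a bar for the mean. Ndufb10 fell from 14.46 and 14.49 to 13.33 and 13.34 in EPM at 12 h, while Cox6b2 rose from 7.84 and 8.02 to 9.10 and 9.19 in BMDM.

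A direct test of the macrophage types asked whether the KLA response of EPM minus that of BMDM differed from 0, taking each response within its own slide. At 1 h limma called 0 members higher and 0 lower, against 4.07% and 5.49% of 17341 genes, with 8 at an unadjusted p under 0.05. With the replicate block 6 were called, against 17.9% of genes. At 12 h 9 members had the higher response in EPM, against 23.2% of 17335 genes, and 11 the lower, against 24.6%. The balance rests on the scale: without scaling between arrays, which alone gave a median of 0.17 over all genes, it was 29 to 3, 5 to 19 in the authors' table, and centred on the brightest 10% 4 to 20. Of all genes 52.9%, 44.4% and 52.4% were called in these settings. With the replicate block 32 were called, against 57.8% of genes, and with arrays as samples 0 were, against 0.617%, with 4 members at an unadjusted p under 0.05. The differences named above for Cox6a2, Cox6b2, Cox4i2, Cox6b1, Cox7a2l and Atp5c1 are among the 20, of which 8 are in complex I and 7 in complex IV.

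In B cells, as the arrays are labelled, KLA moved few members. At 1 h 1 of 81 rose, against 2.72% of 17345 genes, and 2 fell, against 2.45%. The replicate block called 7, against 13.9% of genes. Sdhc, the member that rose, read 9.38 and 9.52 in untreated B cells and 9.80 and 9.73 with KLA. Its replicates did not overlap, and it rose by 0.31 on the log2 scale (SE 0.06, adjusted p = 0.00729). The call was kept in 30 of 37 alternatives. The change turned to -0.03 with arrays as samples, where KLA was set against the early and 12 h controls together. Ndufb6 went from 12.17 and 12.08 to 11.86 and 11.71, and fell by 0.34 on the log2 scale (SE 0.08, adjusted p = 0.0209). This call was kept in 30 of 37 alternatives, with changes from -0.42 to -0.09. Atp5f1 went from 13.91 and 13.87 to 13.69 and 13.61, and fell by 0.23 on the log2 scale (SE 0.06, adjusted p = 0.0443), a call kept in only 14 of 37 alternatives. It was lost, among others, with the mean of probes (-0.10), the processed intensity (-0.19) and arrays as samples (-0.12, adjusted p = 0.948). The count of 3 was 0 without replicate 1 of untreated B cells and 1 without either replicate of KLA for 1 h.

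At 12 h 1 member rose in B cells, against 2.81% of 17346 genes, and limma called 0 lower, against 2.48%, with 5 higher and 2 lower at an unadjusted p under 0.05. The replicate block called 6, against 11.2% of genes. The member that rose was Cox6a2, at 9.63 and 9.78 in the DMSO control and 10.32 and 10.57 with KLA, where it rose by 0.74 on the log2 scale (SE 0.10, adjusted p = 1.01e-04). The median log2 change over the members was 0.00 at 1 h and 0.01 at 12 h. Ndufb10, the member with the largest decrease of complex I in macrophages, read 14.88 and 14.75 in the B cell control at 12 h and 14.82 and 14.74 with KLA, a change of -0.04 (SE 0.05, adjusted p = 0.816). With the labels exchanged this change became 0.25. The B cell responses were not tested against those of the macrophages. Without replicate 2 of KLA for 12 h in B cells, or either replicate of KLA for 12 h in BMDM, 2 members were called.

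With the doubtful B cell conditions exchanged, the counts were far larger, and the median log2 change over the members was 0.06 at 1 h and 0.08 at 12 h. At 1 h 27 members were higher, against 25.0% of 17344 genes, and 12 lower, against 22.4%. At 12 h 27 were higher, against 24.8% of 17347 genes, and 6 lower, against 24.4%. Cox6a2 would be 4.76-fold higher with KLA at 1 h (adjusted p = 5.94e-12) and 7.60-fold higher at 12 h (adjusted p = 2.09e-13). Sdhc would rise by 0.68 at 1 h (adjusted p = 7.87e-08). Ndufb6 would change by -0.11 (adjusted p = 0.313) and Atp5f1 by -0.23 (adjusted p = 0.00677). The authors' table, which carries the other labels, gave 25 higher and 10 lower at 1 h and 23 higher and 6 lower at 12 h. Of all genes it called 42.0% at 1 h and 44.3% at 12 h.

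Before KLA, B cells had lower signal for most members than either macrophage type. Against EPM, untreated in both, 49 of 81 were lower in B cells, where 38.6% of 17345 genes were, and 13 were higher, where 38.5% were. Of all 81 members, 30 were called lower by over 1.5-fold, against 23.9% of all genes. The median log2 difference was -0.42 over the members, -0.01 over all genes and 0.12 over the brightest 10%. Against the early control of BMDM, 50 were lower, against 39.1% of 17342 genes, and 11 higher, against 37.5%. Of all 81 members, 19 were called lower by over 1.5-fold, a share close to the 23.2% of all genes. Here the median was -0.29 over the members, -0.03 over all genes and 0.06 over the brightest 10%. Without scaling between arrays 67 members were lower and 3 higher against EPM, and 70 lower and 4 higher against BMDM, but all genes then shifted too, by a median of -0.14 and -0.22. Of all genes 79.0% and 81.0% were then called. With arrays as samples, where the early and 12 h controls of a cell type were pooled, 44 members were called against EPM. There 53.9% of genes were called, and against BMDM 40 members and 52.0% of genes were. Both main comparisons share the untreated B cells.

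Counts and medians are given by complex, and the complexes were not tested against each other. Of all genes 38.6% were lower and 38.5% higher in B cells than in EPM, and 39.1% lower and 37.5% higher than in BMDM. In complex I 23 genes were lower and 4 higher in B cells than in EPM, with a median log2 difference of -0.55, and 21 lower and 4 higher than in BMDM, with a median of -0.32. All 4 genes of complex II were lower against both, with medians of -0.76 and -0.84. In complex IV 10 were lower and 2 higher than in EPM, and 12 lower and 1 higher than in BMDM, with medians of -0.51 and -0.40. In complex V 7 were lower and 2 higher against each, with medians of -0.20 and -0.21. Without scaling between arrays complex V had 11 lower and 1 higher against EPM and 13 lower against BMDM, with medians of -0.47 and -0.57. Complex I then had 33 lower against EPM, and 31 lower and 2 higher against BMDM, with medians of -0.95 and -0.75. The medians of complex IV were then -0.77 and -0.84. Complex III leaned the other way, with 4 higher and 2 lower against each and medians of 0.36 and 0.59, which became -0.07 and 0.09 without scaling between arrays, where 1 was higher and 3 lower against EPM and 2 higher and 3 lower against BMDM.

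Sdhc had the largest difference of any member on its brightest probe. It read 9.38 and 9.52 in untreated B cells, 11.95 and 11.95 in untreated EPM and 12.08 and 12.06 in the early control of BMDM. Sdhc was 5.66-fold lower (log2 difference -2.50, SE 0.06, adjusted p = 4.26e-17) in B cells than in EPM and 6.13-fold lower (log2 difference -2.62, SE 0.06, adjusted p = 2.51e-17) than in BMDM. With the mean of its probes the differences were -1.25 and -1.31, smaller than those of Uqcr against EPM (-1.45) and Cox7a1 against BMDM (-1.80). Sdhb read 12.14 and 12.01 in B cells, 13.05 and 12.94 in EPM and 13.02 and 12.93 in BMDM. The log2 differences of B cells were -0.91 (adjusted p = 9.64e-10) and -0.90 (adjusted p = 1.3e-09). Sdha read 10.57 and 10.55, then 10.94 and 11.01, then 11.28 and 11.39 in the same order, with differences of -0.41 (adjusted p = 2.88e-04) and -0.77 (adjusted p = 1.84e-07). For Sdhd the values were 12.58 and 12.59, then 13.14 and 13.23, then 12.80 and 12.84, with differences of -0.60 (adjusted p = 1.05e-05) and -0.23 (adjusted p = 0.0295). Its call against BMDM was kept in 30 of 36 alternatives, with differences from -0.67 to -0.21.

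In complex I Ndufc1 (NM_025523, chr3:51493415-51493474), a small membrane arm subunit, read 11.69 and 11.68 in B cells, 13.15 and 13.03 in EPM and 13.10 and 12.97 in BMDM. It was 2.64-fold lower (log2 difference -1.40, SE 0.08, adjusted p = 3.2e-12) in B cells than in EPM and 2.54-fold lower (log2 difference -1.35, SE 0.08, adjusted p = 6.44e-12) than in BMDM. Ndufs8 (NM_144870, chr19:3911200-3911568), an iron-sulphur core subunit, went the other way, at 10.76 and 10.60 in B cells, 10.42 and 10.33 in EPM and 10.01 and 9.67 in BMDM. It was 1.79-fold higher (log2 difference 0.84, SE 0.11, adjusted p = 9.33e-07) in B cells than in BMDM, whose replicates were spread by more than the B cell ones, and differed from EPM by 0.30 (adjusted p = 0.0156) on the log2 scale. The difference from EPM was 0.10 without scaling between arrays, 0.20 in the authors' table, 0.18 when centred on the brightest 10%, 0.23 without replicate 1 of untreated B cells and 0.26 without replicate 2 of untreated EPM, none of them called.

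In complex III Uqcrc1 read 14.22 and 14.19 in B cells, 13.62 and 13.68 in EPM and 13.60 and 13.64 in BMDM, with differences of 0.55 (adjusted p = 1.26e-08) and 0.59 (adjusted p = 5.86e-09). Uqcrc2 read 13.79 and 13.65, then 13.25 and 13.12, then 12.99 and 12.83 in that order, with differences of 0.53 (adjusted p = 1.57e-05) and 0.81 (adjusted p = 6.62e-08). For both core subunits the B cell replicates were above all macrophage replicates, but without scaling between arrays Uqcrc1 differed by 0.05 from EPM and 0.09 from BMDM and Uqcrc2 by 0.05 from EPM, none of them called. Uqcrh read 15.42 and 15.41 in B cells, 14.83 and 14.75 in EPM and 14.82 and 14.63 in BMDM, with differences of 0.63 (adjusted p = 1.13e-05) and 0.69 (adjusted p = 3.29e-06). Uqcr was low in B cells, at 12.58 and 12.72 against 14.12 and 14.08 in EPM and 13.52 and 13.74 in BMDM. It was 2.74-fold lower (log2 difference -1.45, SE 0.09, adjusted p = 4.92e-11) than in EPM and 1.97-fold lower (log2 difference -0.98, SE 0.09, adjusted p = 1.73e-08) than in BMDM.

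In complex IV Cox7a1, the muscle form, read 7.76 and 7.85 in B cells, 9.03 and 9.23 in EPM and 9.61 and 9.61 in BMDM. The 3 cell types did not overlap. It was 2.50-fold lower (log2 difference -1.32, SE 0.09, adjusted p = 1.33e-10) in B cells than in EPM and 3.49-fold lower (log2 difference -1.80, SE 0.09, adjusted p = 1.31e-12) than in BMDM. Cox7a2l was higher in B cells than in EPM, at 12.51 and 12.49 against 11.78 and 11.82 (log2 difference 0.70, SE 0.10, adjusted p = 2.41e-06), while BMDM read 12.73 and 12.60 (log2 difference -0.17, SE 0.10, adjusted p = 0.118). In complex V Atp5g1 read 12.35 and 12.31 in B cells, 13.38 and 13.34 in EPM and 12.73 and 12.98 in BMDM, and was 2.04-fold lower (log2 difference -1.03, SE 0.10, adjusted p = 1.48e-08) in B cells than in EPM. Atp5d (NM_025313, chr10:79548634-79548693), the delta subunit of the central stalk, was above both, at 12.97 and 12.81 against 12.53 and 12.31, then 12.40 and 12.31. It was higher in B cells by 0.47 (adjusted p = 1.98e-04) and 0.53 (adjusted p = 5.51e-05), but without scaling between arrays by 0.05 and 0.07, neither of them called. The choice of probe matters in these comparisons. Of 24 genes with several detected probes, 6 had probes that differed by over 1.25-fold in opposite directions against EPM, the widest being Ndufb8 with -1.20 and 0.80, and 3 did so against BMDM, the widest being Atp5j2 with -0.50 and 1.36. In the KLA comparisons 0 genes did.

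Between the controls of the macrophage types 43 of 81 members were called at the early time, against 57.8% of genes, and 36 at 12 h, against 56.9%. With the replicate block 55 were called at the early time, against 65.3%, and 49 at 12 h, against 64.8%. At the early time 26 members were higher in EPM than in BMDM, against 28.5% of 17344 genes, and 17 lower, against 29.3%. At 12 h 19 were higher, against 27.2% of 17340 genes, and 17 lower, against 29.8%. Without scaling between arrays the early split was 22 to 23, and in the authors' table the 12 h split was 23 to 12. Of all genes 61.7% and 55.7% were called in these settings. With arrays as samples the early and 12 h controls of a cell type were pooled, so both times became the same test. It called 9 members, against 19.6% of genes. In complex I 15 were higher and 5 lower in EPM at the early time, with a median log2 difference of 0.18, and in complex IV 3 higher and 6 lower, with a median of -0.22.

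**Figure D3:**
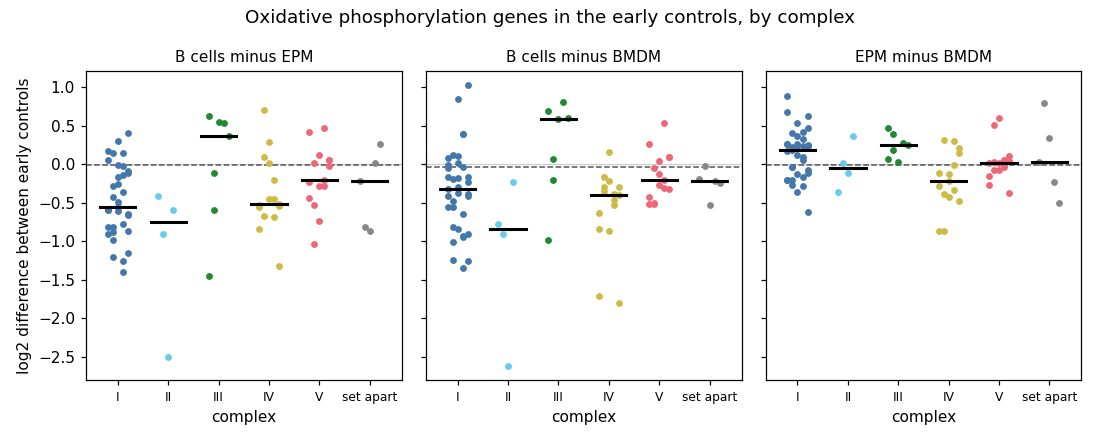
Log2 difference of each member tested (points) between the controls of 2 cell types, by complex, with black bars for the median of each complex and a dashed line for the median of all genes tested. The lowest point against EPM is Sdhc at -2.50, or -1.25 with the mean of its probes, and complex III has a median of 0.36 there, which became -0.07 without scaling between arrays.

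Ndufa1 (NM_019443, chrX:33619077-33619136), a membrane arm subunit next to the ubiquinone site, showed the largest excess in EPM. It read 14.91 and 14.95 in untreated EPM and 14.08 and 13.99 in the early BMDM control, and was 1.86-fold higher (log2 difference 0.89, SE 0.09, adjusted p = 4.4e-08). At 12 h the controls read 14.78 and 14.92, then 13.96 and 13.83, and it was 1.94-fold higher (log2 difference 0.96, SE 0.09, adjusted p = 1.49e-08). B cells read 14.00 and 14.04, near BMDM (log2 difference -0.01, SE 0.09, adjusted p = 0.885). This difference ran from -0.54 to 0.04 over the alternatives, of which 35 of 36 stayed on the same side of the threshold. Ndufc2 (NM_024220, chr7:97282065-97282124), the partner of Ndufc1 in the membrane arm, was higher in BMDM, at 14.20 and 14.10 against 13.50 and 13.56 in EPM (log2 difference -0.62, SE 0.10, adjusted p = 2.24e-05). Cox7a2l was also higher in BMDM, at 12.73 and 12.60 against 11.78 and 11.82 (log2 difference -0.87, SE 0.10, adjusted p = 3.34e-07), and so was Cox6a2, at 9.05 and 9.29 against 8.22 and 8.38 (log2 difference -0.87, SE 0.10, adjusted p = 8.18e-07). Cox4nb (NM_010926, chr8:123543983-123544042), a neighbour of the Cox4i1 gene that is now named Emc8 and encodes no respiratory subunit, read 10.44 and 10.32 in EPM and 9.70 and 9.45 in BMDM, and was 1.75-fold higher (log2 difference 0.80, SE 0.09, adjusted p = 5.61e-07) in EPM.

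Other genes of the pathway were followed by fixed lists, and their 12 h counts stand against 19.6% of genes that rose and 34.3% that fell in EPM, and 28.6% and 36.3% in BMDM. Of 16 electron carriers and ubiquinone enzymes, 4 rose and 7 fell in EPM and 4 rose and 8 fell in BMDM. Gpd2, the mitochondrial glycerol phosphate dehydrogenase that feeds electrons to ubiquinone, read 9.54 and 9.57 in the EPM control and 11.09 and 11.05 with KLA, and rose by 1.51 on the log2 scale (SE 0.07, adjusted p = 5.13e-13). From 9.84 and 9.68 in the BMDM control it went to 11.46 and 11.35, and rose by 1.64 on the log2 scale (SE 0.07, adjusted p = 1.14e-13). Cycs, the cytochrome c that links complexes III and IV, went from 13.56 and 13.63 to 14.74 and 14.66 in EPM and rose by 1.11 on the log2 scale (SE 0.06, adjusted p = 1.91e-11), and from 13.81 and 13.78 to 14.67 and 14.79 in BMDM, where it rose by 0.93 on the log2 scale (SE 0.06, adjusted p = 1.55e-10). Both genes moved opposite to most subunits. Etfb, a carrier of electrons from fatty acid oxidation, went from 13.72 and 13.77 to 12.52 and 12.67 in BMDM and fell by 1.15 on the log2 scale (SE 0.10, adjusted p = 5.74e-09). In EPM its log2 change was -1.50. Coq10b, a ubiquinone-binding protein, rose at 1 h, by 0.58 (adjusted p = 1.82e-05) in EPM and 0.65 (adjusted p = 4.56e-06) in BMDM. These calls, those of Cycs and that of Etfb in BMDM were each kept in 35 of 36 alternatives.

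Of 9 genes of the ATP synthase inhibitor, carriers and channels, 1 rose and 7 fell in EPM at 12 h and 1 rose and 8 fell in BMDM. Atpif1, the inhibitor of complex V, went from 14.85 and 15.03 to 13.70 and 13.77 in EPM and fell by 1.20 on the log2 scale (SE 0.08, adjusted p = 6.17e-10). In BMDM it went from 15.05 and 15.23 to 13.82 and 13.95, and fell by 1.25 on the log2 scale (SE 0.08, adjusted p = 2.07e-10). Ucp2, an inner membrane carrier, went from 10.66 and 11.01 to 9.18 and 9.36 in EPM and fell by 1.57 on the log2 scale (SE 0.14, adjusted p = 2.44e-08), and from 11.39 and 11.56 to 10.72 and 10.96 in BMDM, where it fell by 0.63 on the log2 scale (SE 0.14, adjusted p = 7.34e-04). The decrease was larger in EPM (log2 difference -0.94, SE 0.20, adjusted p = 8.78e-04). Of 20 assembly factors, 6 rose and 9 fell in EPM, and 6 rose and 6 fell in BMDM. Sco1, which delivers copper to complex IV, went from 7.44 and 7.49 to 9.29 and 9.31 in BMDM and rose by 1.83 on the log2 scale (SE 0.07, adjusted p = 1.47e-13), and from 7.56 and 7.54 to 8.42 and 8.23 in EPM, where it rose by 0.77 on the log2 scale (SE 0.07, adjusted p = 5.38e-08). Cox18, which inserts a complex IV subunit into the membrane, rose by 0.95 (adjusted p = 7.87e-09) and 1.60 (adjusted p = 2.51e-12).

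Of 15 citric acid cycle genes, 11 fell in EPM at 12 h, with a median log2 change of -0.44, and 12 in BMDM, with a median of -0.75. Idh2, the NADP-linked isocitrate dehydrogenase of mitochondria, went from 10.57 and 10.67 to 9.53 and 9.61 in EPM and fell by 1.05 on the log2 scale (SE 0.08, adjusted p = 3.63e-09). BMDM read 10.74 and 10.88 in the control and 8.52 and 8.53 with KLA, and the gene fell by 2.28 on the log2 scale (SE 0.08, adjusted p = 2.83e-14). Of 9 genes of pyruvate dehydrogenase and its kinases, 2 rose and 3 fell in EPM and 1 rose and 4 fell in BMDM, with Pdk1, a kinase that inhibits the enzyme, changing by -1.37 (adjusted p = 4.44e-08) and -1.42 (adjusted p = 1.75e-08). Of 75 mitochondrial ribosome genes, 15 rose and 28 fell in EPM and 11 rose and 46 fell in BMDM, with medians of -0.14 and -0.31 that became 0.16 and 0.06 when centred on the brightest 10%. At 1 h 37 of these fell in EPM, where 19.7% of genes did, and 27 in BMDM, where 17.6% did. Of 17 regulators of mitochondrial genes, 3 rose and 9 fell in EPM and 5 rose and 11 fell in BMDM. Hif1a, the oxygen-regulated factor that drives glycolytic genes, rose by 1.11 (adjusted p = 2.77e-08) and 1.14 (adjusted p = 1.16e-08), and Pparg, a lipid-sensing nuclear receptor, changed by -2.89 (adjusted p = 1.81e-19) and -1.38 (adjusted p = 7.06e-15). Yy1, a factor with known sites in promoters of respiratory genes, went from 9.99 and 10.07 to 8.68 and 8.63 in EPM and fell by 1.37 on the log2 scale (SE 0.07, adjusted p = 5.67e-12), and in BMDM the change was -1.20 (adjusted p = 2.76e-11), but with the mean of its probes these were -0.55 and -0.42. In untreated B cells 11 of the 17 regulators were above EPM, against 38.5% of genes, and 2 below, against 38.6%, and 11 were above BMDM, against 37.5%, and 1 below, against 39.1%, Gabpa, which binds ETS sites, being higher by 1.15 (adjusted p = 3.36e-12) and 1.35 (adjusted p = 3.23e-13), or by 0.55 and 0.68 with the mean of its probes. In B cells, by the array labels, none of these 7 lists held more than 5 called genes at either time, while over all genes the share called was 5.17% for 1 h and 5.29% for 12 h. With the labels exchanged, 25.0% of genes were higher and 22.4% lower at 1 h, and 24.8% higher and 24.4% lower at 12 h. The calls at 1 h and 12 h then came to 47 and 42 of the 75 mitochondrial ribosome genes, 14 and 15 of the 20 assembly factors, 10 and 11 of the 17 regulators, 10 and 14 of the 16 electron carriers and ubiquinone enzymes, 9 and 10 of the 15 citric acid cycle genes, 5 and 5 of the 9 inhibitor, carrier and channel genes, and 3 and 3 of the 9 pyruvate dehydrogenase genes.

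Promoters of the members were searched for short motifs named after factors known to act on respiratory genes. RefSeq promoter sequences, from 250 bases before to 50 bases after the start on build GRCm38.p6, were matched by symbol to 68 of the 83 members. Each motif was searched on both strands. The NRF1 motif CGCATGCG was found for 9 of the 68 members (13.2%), among them Uqcr, Uqcrc1 and Atp5g2, and for 2.07% of 27025 genes. The ETS motif CCGGAAG was found for 17 members (25.0%), among them Sdhb, Sdhd, Uqcr, Uqcrh and Cox8a, and for 9.93% of genes. The YY1 motif AAGATGGC was found for 10 members (14.7%) and for 3.19% of genes, and the CRE motif TGACGTCA for 4 members (5.88%) and for 2.03% of genes. The ERR motif TCAAGGTCA was found for Atp5g3 and Sdhd (2.94%) and for 0.466% of genes. A match is a description of the sequence and not a site shown to be bound.

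Of the promoters of members the results turn on, the 3 with motif matches are printed, with matches in capitals and 5′ to 3′ on the strand of the gene. The promoters of Ndufb10 and Cox7a1, the largest decreases of complexes I and IV in EPM at 12 h, held none of these motifs. That of Cox6b2, the largest increase, held none either. Uqcr lies on the minus strand at chr10:80406772-80407071, with ETS and NRF1 matches, and Atp5g2 on the minus strand at chr15:102670998-102671297, with an NRF1 match. These were the largest decreases of complexes III and V in EPM at 12 h. Sdhd lies on the minus strand at chr9:50603800-50604099, and its ETS and ERR matches are on the other strand.
Uqcr: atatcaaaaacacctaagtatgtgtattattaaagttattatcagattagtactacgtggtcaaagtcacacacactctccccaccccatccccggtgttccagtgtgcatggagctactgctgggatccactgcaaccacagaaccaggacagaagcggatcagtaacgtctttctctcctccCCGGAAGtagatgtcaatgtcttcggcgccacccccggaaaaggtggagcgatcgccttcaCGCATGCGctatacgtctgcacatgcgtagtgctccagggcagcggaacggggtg
Atp5g2: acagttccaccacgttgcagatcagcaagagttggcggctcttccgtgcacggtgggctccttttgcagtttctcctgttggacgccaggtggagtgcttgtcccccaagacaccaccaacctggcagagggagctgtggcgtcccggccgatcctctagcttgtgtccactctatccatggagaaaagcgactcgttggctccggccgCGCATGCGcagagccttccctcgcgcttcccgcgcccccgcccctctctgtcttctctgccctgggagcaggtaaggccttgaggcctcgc
Sdhd: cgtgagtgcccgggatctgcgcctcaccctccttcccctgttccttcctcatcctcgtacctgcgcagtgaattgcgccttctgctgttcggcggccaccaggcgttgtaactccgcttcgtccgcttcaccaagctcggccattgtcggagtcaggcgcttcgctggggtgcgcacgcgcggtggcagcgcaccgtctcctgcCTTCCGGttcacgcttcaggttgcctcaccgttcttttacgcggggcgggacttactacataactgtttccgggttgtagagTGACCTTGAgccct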

How the data were processed

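Gene expression was measured on 12 Agilent two-channel mouse arrays with 24 channels, 2 replicates for each of 12 conditions. The authors deposited scanner files with the intensity of every spot, made with Feature Extraction 9.5.3.1, and a table of normalised intensity values whose method is not stated. The scanner values were used here. Background was corrected with normexp (offset 50), loess was applied within arrays and quantile normalisation of array means between them, and single-channel log2 values were taken. Of 43379 spots that are not controls, on 41174 probes, 34850 probes carry 1 of 21597 gene symbols, and the brightest probe of a gene stood for it. Genes whose chosen probe passed background in both replicates of some condition were tested, 17347 in all, with 134 missing values. Between 57.4% and 65.0% of probes, with a median of 60.2%, were well above background in a channel, and 0 spots were saturated.

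The model, fitted with limma 3.58.1 in R 4.3.3 (statmod 1.5.0, data.table version 1.17.8), had 1 coefficient for each condition and 12 residual degrees of freedom. P values were adjusted by the Benjamini-Hochberg method over all genes tested, with a threshold of 0.05 and a second count at 1.5-fold. KLA was compared with a control, which at 12 h was DMSO for 12 h and at 1 h was DMSO for 1 h in BMDM but untreated cells in EPM and B cells, so at 1 h in these KLA cannot be told apart from the vehicle and handling. Controls were compared between cell types, and the KLA responses of EPM and BMDM were tested against each other. The replicates of a condition lie in the Cy5 and Cy3 channels of 1 array. As a check of pairing, the Cy5 minus Cy3 difference was correlated across genes between arrays, which gave 0.267 to 0.627 over 66 pairs of arrays, all above 0.1. The replicate number is also the dye, so the source of the pairing cannot be told apart from the dye. The model, fixed before this check, took replicates as unpaired, with a replicate block as an alternative. The procedure was tested on simulated data.

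Alternatives were an offset of 16, the processed intensity of Feature Extraction, loess without scaling between arrays, the values normalised by the authors, other filters, the mean of a gene's probes, the replicate block, a fit of the compared cell types alone, array means as samples, centring on all genes, exchange of the doubtful B cell labels, and leaving out each replicate in turn. With array means as samples the early and 12 h controls of a cell type were pooled, so KLA was not set against its same-time control alone. Centring on the brightest 10% of genes was added after the data were seen. The members and the lists of pathway and marker genes were chosen with earlier results of these data known. Marker lists were for macrophages, B cells, T cells, neutrophils, erythroid cells and genes induced by KLA.

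Genes were named by a rule, though not every gene that the rule gives is described. For each complex and KLA comparison it takes the top 2 increases and the top 2 decreases past the threshold, provided that replicates do not overlap and the brighter condition passed background, and 1 in each direction for controls compared between cell types. Sets of isoforms are named whatever their values. Of each pathway list up to 2 in each direction are named, with a few listed genes. Promoters came from RefSeq on GRCm38.p6, and probe positions on mm8 from the array files. Ndufa4l2, Cox7b2, Uqcr10 and AA467197 were not analysed here.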

Additional observations from a re-analysis of the deposited data

Results flagged for a closer look

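The KLA responses of EPM and BMDM at 12 h differed by the test of the difference itself for 20 of 81 members, against 47.8% of all genes. With arrays as samples, limma called 0 members. The differences are log2 responses of EPM minus those of BMDM, and all share the arrays behind the responses in the report. The response was lower in EPM for Cox6a2 (-0.94), Cox6b2 (-0.79) and Cox4i2 (-0.49), tissue forms of complex IV subunits that had the largest increases in BMDM. It was also lower for Cox6b1 (-0.54), which fell in EPM, and for Cox8a (-0.22), which fell in both.

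In complex I the response was lower in EPM for Ndufa1 (-0.46), Ndufa11 (-0.38), Ndufb2 (-0.35), Ndufc1 (-0.35) and Ndufb6 (-0.29), and in complex V for Atp5o (-0.32). The opposite, a deeper decrease in BMDM, was found in complex I for Ndufv1 (0.33), Ndufab1 (0.30) and Ndufs1 (0.28). In complex III it was found for Uqcrb (0.33), in complex IV for Cox7a2l (0.70) and Cox5b (0.21), and in complex V for Atp5c1 (0.53). Among the genes set apart it was found for Atp5s (0.49) and Ndufa12l (0.47). Without scaling between arrays 29 members had the higher response in EPM and 3 the lower, so the balance of directions depends on the scale, and the cause was not tested.

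Uqcrb moved in opposite directions at the 2 times. Its log2 change was 0.30 at 1 h and -0.30 at 12 h in EPM, and 0.41 and -0.64 in BMDM. The EPM change at 12 h was -0.06 without scaling between arrays, -0.17 in the authors' table and 0.00 when centred on the brightest 10%, and was not called in any of these. On the values reported, both replicates with KLA were above both controls at 1 h and below both at 12 h. Uqcrb was flagged by this separation, which is therefore no further evidence. The difference between the times was not tested.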

How the results depend on the processing

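Each count of members called was recomputed under the alternatives. Of these counts, 109 stayed within 1.5 times the count reported and 37 did not, and the cause was not tested. For KLA at 12 h, EPM gave 20 with array means, and BMDM gave 41 in the authors' table, 41 when centred on the brightest 10% and 26 with array means. For KLA at 1 h, EPM gave 14 in the authors' table, 17 when centred on the brightest 10% and 0 with array means in limma, with 12 at an unadjusted p under 0.05. BMDM at 1 h gave 11 without scaling between arrays, 7 in the authors' table, 36 with the replicate block and 0 with array means, with 6 at an unadjusted p under 0.05.

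In B cells at 1 h limma called 0 with the processed intensity, 0 in a fit of B cells alone and 0 with array means, against 1 with the mean of probes, 7 with the replicate block, 35 in the authors' table and 39 with the labels exchanged. At 12 h B cells gave 3 with the processed intensity, 2 without scaling between arrays, 2 when centred on all genes, 2 when centred on the brightest 10%, 6 with the replicate block, 0 with array means, 29 in the authors' table and 33 with the labels exchanged. With array means, which pool the early and 12 h controls of a cell type, those of EPM and BMDM differed in 9 members. The pooled controls of B cells and BMDM differed in 40. The difference of responses at 1 h gave 1 with an offset of 16, 1 with the processed intensity, 1 without scaling between arrays, 2 with the mean of probes and 6 with the replicate block. At 12 h it gave 32 without scaling between arrays, 32 with the replicate block and 0 with array means, with 4 at an unadjusted p under 0.05.

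Leaving out 1 replicate, with the remaining one assumed to vary like the other groups, gave 25 to 35 for EPM at 1 h, 57 to 67 for EPM at 12 h, 11 to 22 for BMDM at 1 h and 58 to 74 for BMDM at 12 h. B cells gave 0 to 3 at 1 h and 1 to 2 at 12 h. Controls gave 30 to 44 and 25 to 38 for EPM against BMDM at the early and the late time, 56 to 62 for B cells against EPM and 52 to 62 against BMDM. The difference of responses gave 0 to 2 at 1 h and 15 to 20 at 12 h.

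For single genes 20 values changed sign with the value reported or the alternative past the threshold. Values short of the threshold in both could change sign too, such as the 12 h changes in EPM of Cox7a2, up to 0.15, Cox7a2l, up to 0.09, and Cox6a2, up to 0.22. Centred on the brightest 10%, the 12 h change became 0.07 for Sdha and 0.07 for Sdhc in EPM. In BMDM it became 0.09 for Sdha, 0.07 for Sdhd, 0.13 for Sdhc, 0.03 for Cox7a2, 0.26 for Ndufb6 and 0.26 for Atp5f1. Uqcrc2 in EPM became 0.28 there, 0.33 without scaling between arrays and 0.25 in the authors' table. In that table the BMDM changes at 12 h became 0.00 for Sdhc, 0.11 for Cox6a1, 0.05 for Cox8a and 0.35 for Atp5f1. Sdhc in BMDM became 0.04 with the mean of probes, and Cox6b1 there became -0.22 without scaling between arrays. In B cells Sdhc at 1 h became -0.03 with array means, and Ndufb10 at 12 h became 0.24 in the authors' table and 0.25 with the labels exchanged. Of the other values of named genes, 151 lost the threshold, 18 gained it and 1680 stayed on the same side of it. Of the 151, 73 came from array means as samples, where 82 values kept their side, 20 from centring on the brightest 10%, 18 from loess without scaling between arrays and 17 from the authors' table. Of the 18, 4 came with the replicate block, Ndufa7 in BMDM at 1 h (-0.28) and Cox7a2 (-0.19), Cox7a2l (-0.20) and Atp5g3 (-0.40) in EPM at 12 h, and it changed no other call of a named gene. Leaving out 1 replicate lost the threshold for 54 values, gained it for 10 and moved none of the other 3680 across it.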
